A study of Mus musculus with 7 samples.

Results

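The Wnt ligands, receptors and feedback genes described here are 42 genes taken from a list of symbols and matched to the gene identifiers of a count table through the GENCODE M21 annotation. All 42 were found among its 54446 genes. They are 10 ligands, 2 genes of ligand secretion, 8 Frizzled receptors, 6 co-receptors and other receptors, the receptor-removing ligases Rnf43 and Znrf3, 3 members of the destruction complex, beta-catenin, 4 TCF factors, the intracellular inhibitor Nkd1 and 5 secreted inhibitors. RNA was sequenced from pancreatic spheroids, 3-dimensional cultures labelled as pancreatic epithelial cells, from C57BL/6J wild-type mice. The post-caerulein group (labelled PostCAE, 4 libraries) came from mice treated beforehand with caerulein, a peptide related to cholecystokinin that is used to set off pancreatitis, and the untreated group (labelled CTRL, 3 libraries) from mice without it. All cultures shared a medium with EGF, bovine pituitary extract, hydrocortisone, cholera toxin, insulin and nicotinamide, and its listed ingredients name no Wnt ligand or R-spondin. The sources used here do not give the age of the mice, the caerulein dose or the time after it. They also leave unstated whether each library had its own animal or culture, so a p-value measures only how these libraries vary, and part of that variation may be technical. The comparison asks how epithelium from a pancreas that had been through inflammation differs from epithelium that had not.

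Wnt proteins are lipid-modified by Porcn, carried out of the cell by Wls and bound by a Frizzled receptor together with Lrp5 or Lrp6. This stops the destruction complex of Axin and Apc from marking beta-catenin for degradation, and beta-catenin then acts with TCF factors on target genes, among which Axin2, Nkd1, Notum, Rnf43, Znrf3 and Lgr5 are widely used as readouts and feed back on the pathway. Other ligands, Wnt5a and Wnt11 among them, are known mostly for signalling through Ror2 and Ryk without beta-catenin. In the adult pancreas the pathway is mostly studied in regeneration and in ductal tumours.

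Total counts ranged from 34783738 to 46744497 per library, so that 3 counts, the limit that a count of 0 allows, equal 0.0630 to 0.0841 CPM, which is the count scaled to the library's effective size. This limit covers counting error only. Post-caerulein 2 and 3 (5.73%) and untreated 1 and 2 (8.46%) were close pairs by their biological coefficient of variation, which reached at least 22% in any other pair. On the first principal component untreated 3 (70.4) and post-caerulein 4 (58.4) lay at one end, post-caerulein 1 to 3 in the middle (-10.8 to 8.06) and untreated 1 and 2 at the other end (-67.7 and -63.4), so the other 5 libraries did not form a single cluster. The authors' deposited table was given back, to within 3.2e-08 on the log2 scale, by a model in which these 2 libraries form a block of their own, although no label names such a block. Genes were therefore fitted under 2 models, with the group as the only term and with the group and this block, and values within each block are given where they differ.

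Levels spanned a wide range, with 30 of the 42 genes high enough to test. On a scale per kilobase of exon, on which levels of different genes can be compared, Ctnnb1, which encodes beta-catenin, was the highest at 432 ± 104 CPM per kilobase (SD, n = 4) in post-caerulein and 477 ± 116 CPM per kilobase (SD, n = 3) in untreated libraries. Wnt7b, Lrp5, Wls and Wnt4 followed, with means over the 7 libraries of 103, 58.0, 48.9 and 43.8 CPM per kilobase. At the other end, 12 of the 42 genes were too low to test: Wnt3, Wnt5b, Wnt10b, Lgr5, Axin2, Lef1, Nkd1, Dkk1, Dkk3, Sfrp1, Sfrp5 and Notum. They include the target genes Axin2, Lgr5, Nkd1 and Notum, while the targets Rnf43 and Znrf3 passed the filter on low counts.

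**Figure D1:**
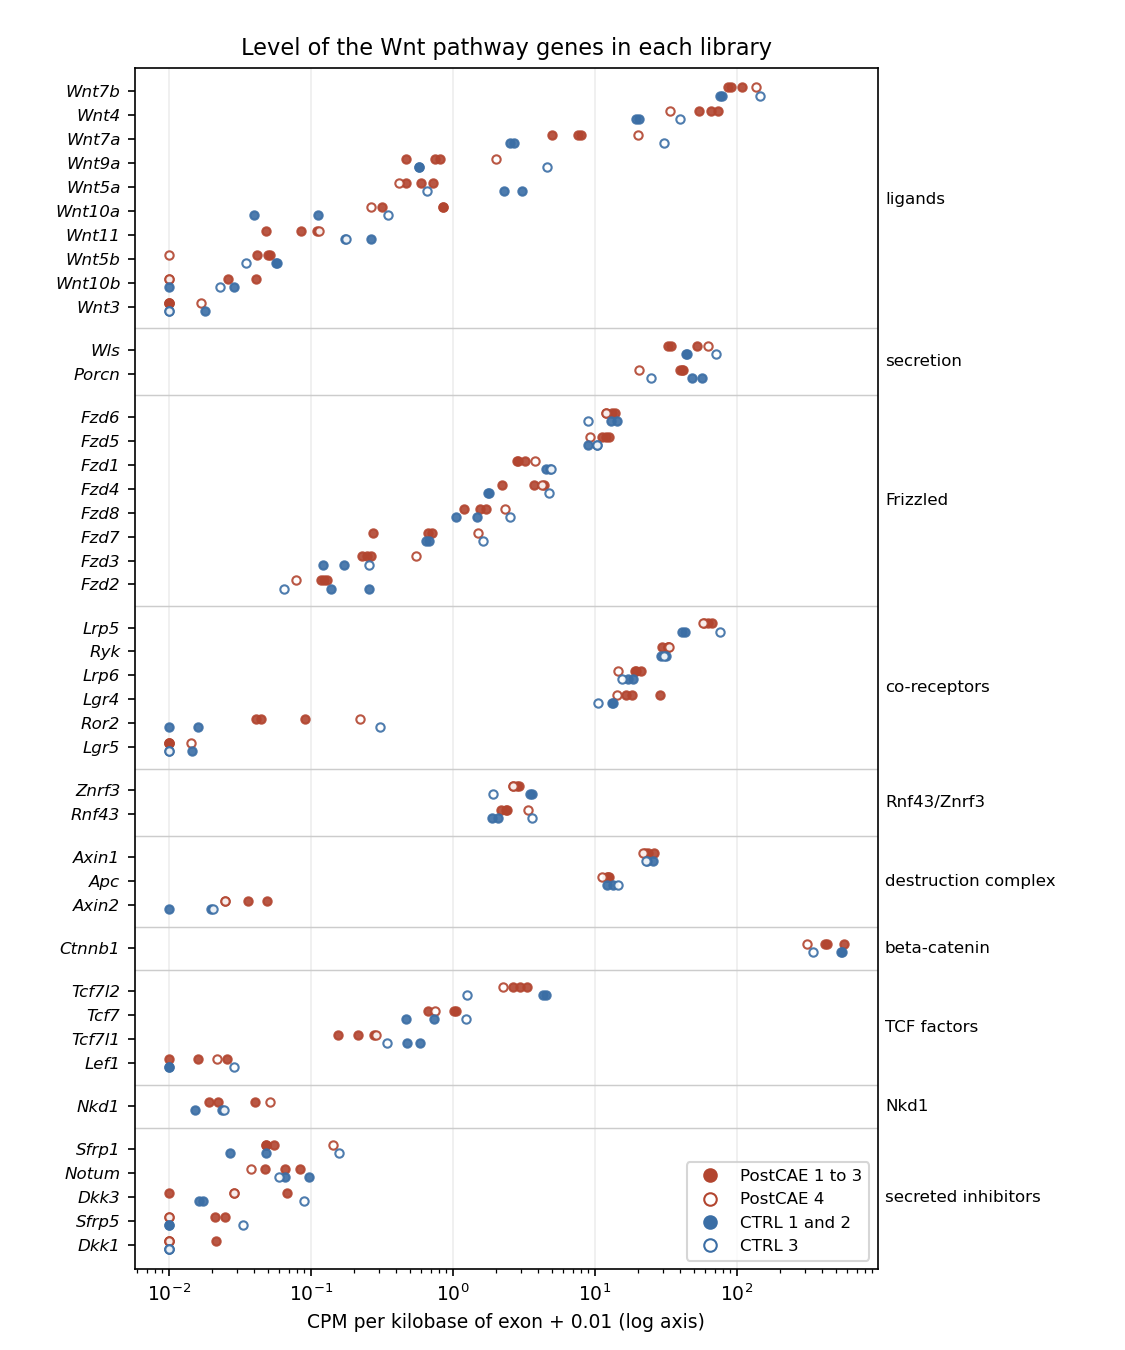
Level of each of the 42 genes in each library, as CPM per kilobase of exon plus 0.01 on a log axis, with post-caerulein libraries (red) above untreated libraries (blue) in each row and open symbols for post-caerulein 4 and untreated 3. Ctnnb1, Wnt7b, Lrp5, Wls and Wnt4 lead, while Axin2, Lgr5, Lef1, Nkd1 and most secreted inhibitors sit near the left edge in both groups.

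Among the ligands, Wnt5a was lower and Wnt4 higher in most post-caerulein libraries. The Wnt5a difference rested largely on untreated 1 and 2, and the Wnt4 difference was not shared by post-caerulein 4 against untreated 3. Wnt5a (chromosome 14, 28504750 to 28527448, GRCm38) was at 3.195, 4.99, 4.13 and 2.86 CPM in post-caerulein 1 to 4, against 21.5, 15.95 and 4.56 CPM in untreated 1 to 3. Untreated 1 and 2 stood above all other libraries, and untreated 3 lay within the post-caerulein range, so the groups overlapped. With the block, Wnt5a fell by 1.77 ± 0.32 (log2, SE), and edgeR's quasi-likelihood test gave it an adjusted p of 0.0492. With the group as the only term it differed by -1.88 ± 0.48 with an adjusted p of 0.269 by the same test. The call with the block was lost without untreated 1 (adjusted p = 0.271, edgeR), untreated 2 (0.267) or post-caerulein 1, 2 or 3 (0.0947, 0.134 and 0.167). It was also lost when the close pairs of libraries were summed (0.603, log2 difference of -1.63) and with a stricter count filter (0.0624). Without untreated 1, without untreated 2 and with the close pairs summed, 0 genes of any kind passed. The Wnt5a log2 difference was -1.49 without untreated 1 and -1.77 without untreated 2. Within the blocks the difference was -2.16 (log2) between post-caerulein 1 to 3 and untreated 1 and 2, and -0.67 between post-caerulein 4 and untreated 3. Fibroblasts are a known source of Wnt5a, but their part in its level here was not tested. The summed level of 12 fibroblast and stellate cell markers was lowest, at 0.816 and 1.35 CPM, in the untreated libraries 1 and 2. Of these 12 markers, 7 stayed under 1 CPM in every library.

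Wnt4, a ligand of epithelial development (chromosome 4, 137277489 to 137299726), was at 273, 226, 310 and 141 CPM in post-caerulein 1 to 4, against 81.9, 85.0 and 168 CPM in untreated 1 to 3. Post-caerulein 1 to 3 were above every untreated library, and post-caerulein 4 was below untreated 3. The difference was 1.13 ± 0.38 (log2, SE) with the block and did not pass the test (adjusted p = 0.184, edgeR quasi-likelihood). It turned between the blocks, at 1.72 in the larger block, where it passed (adjusted p = 0.00109, edgeR), and -0.26 between post-caerulein 4 and untreated 3. Wnt4 made up 36.1%, 34.7%, 43.4% and 17.5% of the ligand transcripts per kilobase in post-caerulein 1 to 4, against 18.7%, 19.9% and 18.0% in untreated 1 to 3. The share was therefore at the untreated level in post-caerulein 4 and well above it in the other 3.

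**Figure D2:**
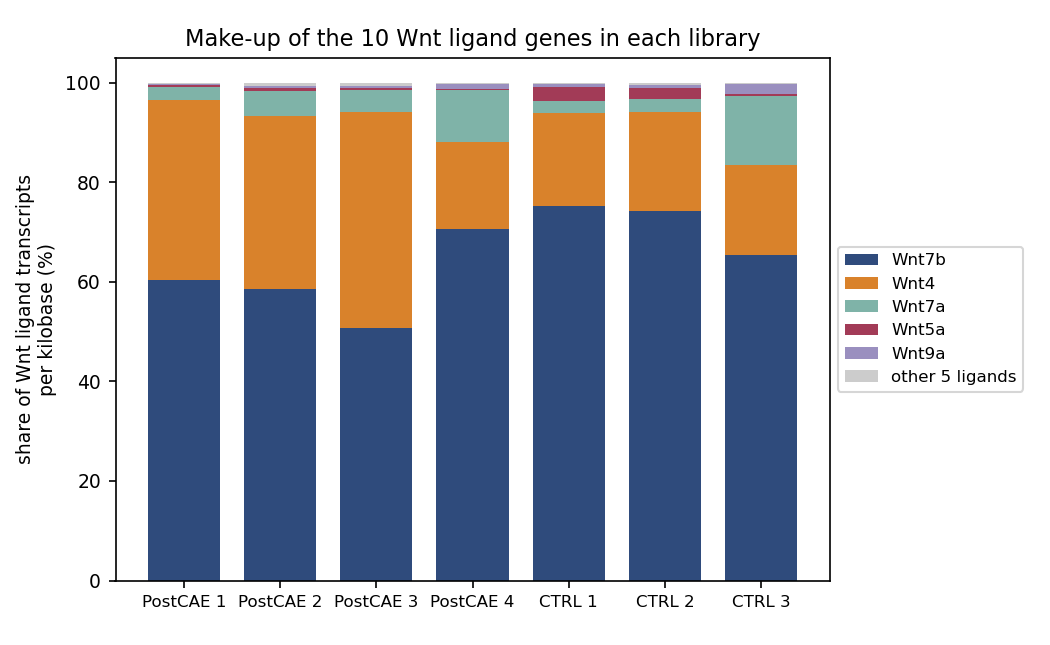
Share of each ligand gene in the summed CPM per kilobase of the 10 ligand genes in each library, in percent, with post-caerulein libraries on the left and untreated libraries on the right. Wnt7b and Wnt4 fill most of every bar, Wnt4 is largest in post-caerulein 1 to 3, Wnt5a is visible mainly in untreated 1 and 2, and Wnt7a is widest in post-caerulein 4 and untreated 3.

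Wnt7b, an epithelial ligand, was the most abundant ligand in every library. It was at 504, 421, 400 and 624 CPM in post-caerulein 1 to 4, against 363, 350 and 670 CPM in untreated 1 to 3. The highest library of each group was the one in the smaller block, and the difference with the block was 0.19 ± 0.13 (log2, SE), which did not pass. Wnt7a, its close paralog, was at 15.9, 25.4, 24.0 and 63.4 CPM in post-caerulein libraries, against 7.97, 8.47 and 98.03 CPM in untreated libraries. In both groups the library of the smaller block was the highest. The same held for Wnt9a, which reached 6.62 CPM in post-caerulein 4 and 15.2 CPM in untreated 3 and stayed between 1.51 and 2.67 CPM elsewhere.

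Wnt11 was low but did not overlap between the groups, at 0.364, 0.139, 0.274 and 0.378 CPM in post-caerulein 1 to 4, against 0.594, 0.927 and 0.6003 CPM in untreated 1 to 3. These values rest on 49 reads in the 4 post-caerulein and 95 reads in the 3 untreated libraries. The log2 difference was -1.28 ± 0.39 (SE) with the block and did not pass (adjusted p = 0.151, edgeR quasi-likelihood). Wnt10a, a ligand of skin and tooth development, was at 0.757, 2.08, 2.06 and 0.630 CPM in post-caerulein libraries, against 0.0742, 0.253 and 0.845 CPM in untreated libraries. Its groups overlapped and it did not pass with the block (2.01 ± 0.88, adjusted p = 0.300, edgeR quasi-likelihood). Wnt3, Wnt5b and Wnt10b stayed at or under 0.126 CPM in all libraries.

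Promoter windows of 3 members are shown because they stand for the abundant ligand Wnt4, for the low, non-overlapping Wnt11 and for the near-silent target gene Axin2. They come from RefSeq on GRCm38.p6, run from 250 bases before to 50 bases after an annotated start on the plus strand and are written 5′ to 3′. Capitals mark the TCF core sequence CTTTGAT, searched on both strands, which reads ATCAAAG on the other strand.
Wnt4, chr4:137277385-137277684: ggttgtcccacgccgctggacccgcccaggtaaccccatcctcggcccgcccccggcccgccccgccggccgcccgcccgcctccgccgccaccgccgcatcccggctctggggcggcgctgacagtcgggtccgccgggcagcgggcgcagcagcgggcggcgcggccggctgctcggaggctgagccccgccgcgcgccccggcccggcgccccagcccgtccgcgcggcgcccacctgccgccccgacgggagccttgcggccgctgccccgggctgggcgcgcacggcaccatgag
Wnt11, chr7:98834862-98835161: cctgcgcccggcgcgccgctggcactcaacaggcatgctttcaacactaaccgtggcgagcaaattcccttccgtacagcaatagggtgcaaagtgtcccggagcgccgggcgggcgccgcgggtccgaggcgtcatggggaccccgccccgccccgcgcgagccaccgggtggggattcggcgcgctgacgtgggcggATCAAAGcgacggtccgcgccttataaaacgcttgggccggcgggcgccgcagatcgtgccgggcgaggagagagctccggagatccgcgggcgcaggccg
Axin2, chr11:108920099-108920398: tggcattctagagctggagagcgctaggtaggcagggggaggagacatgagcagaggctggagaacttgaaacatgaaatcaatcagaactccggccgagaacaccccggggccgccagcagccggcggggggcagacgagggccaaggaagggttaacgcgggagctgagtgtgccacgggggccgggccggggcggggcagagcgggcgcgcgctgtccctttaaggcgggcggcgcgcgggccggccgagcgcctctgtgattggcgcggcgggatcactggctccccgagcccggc
Of the 35 windows of the 25 members in the RefSeq table, 2 held the sequence, 1 at Wnt11 and 1 at Wnt5b, which is 5.71% of them, against 3.73% of all 32851 windows. Wnt11 has a second window (chr7:98838595-98838894), not shown, and neither it nor the Wnt4 and Axin2 windows hold a match. A match is a string of letters in these windows and nothing more.

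The genes of ligand secretion were abundant in both groups. Porcn, the acyltransferase that lipidates Wnt proteins, was at 77.4, 78.8, 75.9 and 38.8 CPM in post-caerulein 1 to 4, against 91.8, 107 and 47.1 CPM in untreated 1 to 3. The smaller block was low in both groups, and within each block post-caerulein libraries were lower, by -0.34 (log2) in the larger block and -0.28 in the smaller. The difference of -0.34 ± 0.08 (log2, SE) with the block did not pass (adjusted p = 0.0944, edgeR quasi-likelihood). Wls, the carrier of lipidated Wnt proteins, was at 197, 124, 129 and 238 CPM in post-caerulein libraries, against 165, 168 and 269 CPM in untreated libraries, and did not pass with or without the block.

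Of the 8 Frizzled genes, Fzd6 and Fzd5 were the main ones in every library, with 26.8% to 43.1% and 27.5% to 37.4% of Frizzled transcripts per kilobase. Fzd1 was lower in all 4 post-caerulein libraries, at 11.8, 12.1, 13.6 and 16.0 CPM, against 20.1, 18.95 and 20.7 CPM in untreated 1 to 3. It did not overlap between the groups and had the same direction in both blocks, -0.62 (log2) in the larger and -0.37 in the smaller. Its log2 difference of -0.57 ± 0.11 (SE) with the block did not pass (adjusted p = 0.0628, edgeR quasi-likelihood). DESeq2 called it, with an adjusted p of 0.0149 for the group alone.

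Fzd3 was at 2.77, 3.27, 3.05 and 6.93 CPM in post-caerulein 1 to 4, against 1.43, 2.04 and 3.16 CPM in untreated 1 to 3. Post-caerulein 4 was far above the other 3, and untreated 3 lay within the post-caerulein range. Its difference of 0.90 ± 0.21 (log2, SE) with the block did not pass (adjusted p = 0.0849, edgeR quasi-likelihood), and it was positive in both blocks, at 0.82 and 1.13. Fzd7 stood apart by block, at 6.72 CPM in post-caerulein 4 and 7.34 CPM in untreated 3 and between 1.21 and 3.19 CPM elsewhere. The log2 differences with the block were 0.17 ± 0.12 for Fzd5, 0.07 ± 0.12 for Fzd6, 0.61 ± 0.30 for Fzd4, -0.22 ± 0.32 for Fzd7, 0.13 ± 0.21 for Fzd8 and -0.48 ± 0.36 for Fzd2, and none passed.

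Lgr4, a receptor for R-spondins, was the single member whose post-caerulein libraries, at 146.3, 84.03, 93 and 71.81 CPM, were all above the untreated ones, at 67.1, 68.0 and 53.3 CPM, among the members tested. The lowest post-caerulein library was 4 and the lowest untreated library was 3, so the gene was higher within both blocks, by 0.70 and 0.43 on the log2 scale. Lgr4 differed by 0.60 ± 0.19 (log2, SE) with the block and did not pass (adjusted p = 0.169, edgeR quasi-likelihood). Lrp5, a co-receptor, was at 399, 354, 377 and 348 CPM in post-caerulein libraries, against 259, 246 and 455 CPM in untreated libraries. Over all libraries Lrp5 did not pass, at 0.29 ± 0.19 (log2, SE) with the block (adjusted p = 0.493, edgeR quasi-likelihood) and 0.21 ± 0.22 with the group only (adjusted p = 0.879). It passed in the larger block (0.60, adjusted p = 0.00829, edgeR quasi-likelihood), and its log2 ratio of post-caerulein 4 to untreated 3 was -0.39. Its paralog Lrp6 lay between 137 and 197 CPM and the receptor kinase relative Ryk between 84.7 and 96.8 CPM over all 7 libraries, with log2 differences of 0.08 ± 0.09 and 0.08 ± 0.08 (SE). Ror2, the Wnt5a receptor, reached 0.861 CPM in post-caerulein 4 and 1.20 CPM in untreated 3 and at most 0.333 CPM elsewhere. Lgr5, a stem cell receptor and Wnt target, had 1 read in the post-caerulein and 1 read in the untreated libraries.

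**Figure D3:**
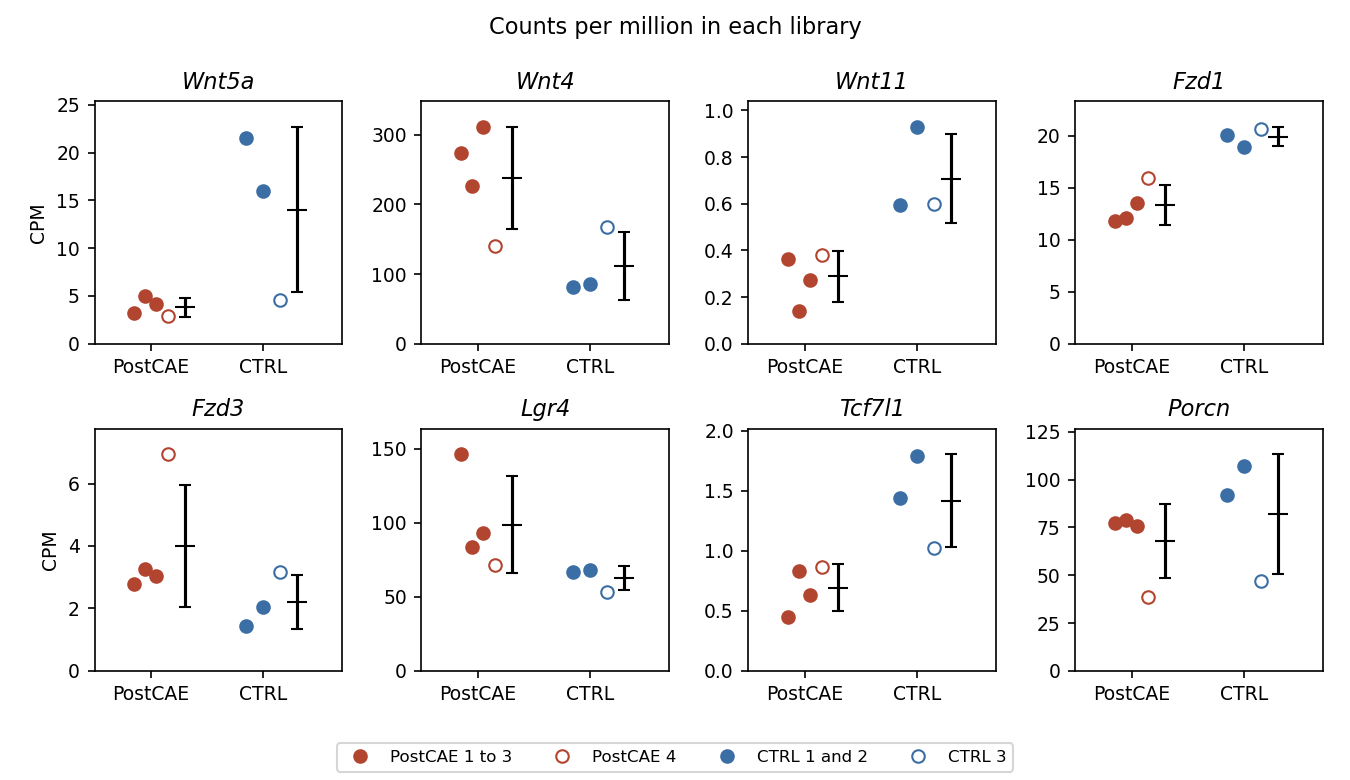
CPM of 8 members in each library, post-caerulein on the left and untreated on the right, with the mean and SD beside the points and open symbols for post-caerulein 4 and untreated 3. Fzd1, Wnt11 and Tcf7l1 are lower and Lgr4 higher in every post-caerulein library, while for Wnt5a and Wnt4 untreated 3 falls within the post-caerulein range.

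The log2 differences of the inner components with the block stayed within 0.19 of 0. Axin1, the scaffold of the destruction complex, was at 89.1 ± 7.18 CPM (SD, n = 4) in post-caerulein and 90.2 ± 5.45 CPM (SD, n = 3) in untreated libraries, a log2 difference of -0.03 ± 0.09 (SE) with the block. Apc, its other scaffold, was at 155 ± 7.45 CPM in post-caerulein and 170 ± 14.7 CPM in untreated libraries, a difference of -0.13 ± 0.09. Ctnnb1 was at 2047, 1515, 1561 and 1132 CPM in post-caerulein 1 to 4, against 1983, 1958 and 1245 CPM in untreated 1 to 3. The lowest Ctnnb1 library of each group was the one in the smaller block, and the difference with the block was -0.19 ± 0.13 (log2, SE).

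Tcf7l2, the TCF gene with the largest share per kilobase in each library, was at 19.7, 15.6, 17.5 and 13.3 CPM in post-caerulein 1 to 4, against 26.6, 25.3 and 7.36 CPM in untreated 1 to 3. Over all libraries Tcf7l2 did not pass, at -0.17 ± 0.26 (log2, SE) with the block (adjusted p = 0.808, edgeR quasi-likelihood) and -0.26 with the group only (adjusted p = 0.932). It passed in the larger block (-0.54, adjusted p = 0.0322, edgeR quasi-likelihood) and went the other way between post-caerulein 4 and untreated 3 (0.85). Tcf7l1, a mostly repressive TCF factor, was lower in every post-caerulein library, at 0.448, 0.832, 0.632 and 0.861 CPM, against 1.43, 1.79 and 1.02 CPM in untreated libraries. Its log2 difference of -1.02 ± 0.33 (SE) with the block did not pass (adjusted p = 0.166, edgeR quasi-likelihood). Tcf7 was between 1.2 and 3.2 CPM in all libraries and Lef1 at or under 0.0667 CPM.

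The target genes that feed back on the pathway fell into a measurable pair and a near-silent remainder. Rnf43 and Znrf3, ligases that remove Frizzled receptors, both passed the count filter. Rnf43 averaged 11.7 ± 2.43 CPM in the post-caerulein group (SD, n = 4) and 11.4 ± 4.25 CPM in the untreated group (SD, n = 3). Znrf3 averaged 21.8 ± 1.07 CPM in the post-caerulein group and 23.6 ± 7.49 CPM in the untreated group. Their log2 differences with the block were 0.13 ± 0.13 and -0.10 ± 0.16 (SE). Axin2 had 16 reads in the 4 post-caerulein and 4 reads in the 3 untreated libraries, and its level was at most 0.166 CPM. Its post-caerulein libraries (0.0630 to 0.166 CPM) all lay above the untreated ones (0 to 0.0445 CPM). No library had more than 6 reads of it, too few to test. Nkd1, an inhibitor of Dishevelled, had 18 reads in post-caerulein and 7 reads in untreated libraries. Notum, a Wnt deacylase, had 18 reads in post-caerulein and 19 reads in untreated libraries. The remaining secreted inhibitors were as low: Sfrp1 reached 0.645 CPM and Dkk3 0.267 CPM, both in untreated 3, while Dkk1 had 1 read and Sfrp5 4 reads in all 7 libraries.

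Over all members, 0 of the 30 tested passed with the group as the only term, where 0% of the 16438 genes tested did. At an unadjusted p under 0.05 there were 6 members, against 9.50% of all genes, and limma-voom also called 0 members. DESeq2 called 2 members with the group alone, Wnt5a and Fzd1, both lower, where it called 3.10% of all genes, 1.41% lower and 1.69% higher. With the block, edgeR's quasi-likelihood test called 1 member lower, Wnt5a, and 0 higher. It called 1.53% of all genes, 0.876% lower and 0.651% higher. At an unadjusted p under 0.05 there were 8 members with the block, against 17.5% of all genes. DESeq2 with the block called 6, with Wnt4, Wnt10a and Fzd3 higher and Wnt5a, Fzd1 and Porcn lower, while it called 8.45% of all genes, 4.45% higher and 4.00% lower. The members' median log2 difference with the block was 0.08, with 16 positive and 14 negative, beside a median of -0.0040 over all genes. With the group only the members' median had the other sign, at -0.07, beside -0.02 over all genes. The groups did not overlap for 4 of the 30 members, 13.3%, against 9.31% of all genes (4.67% higher, 4.64% lower). Lgr4 was the higher one, and Wnt11, Fzd1 and Tcf7l1 were the lower ones.

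**Figure D4:**
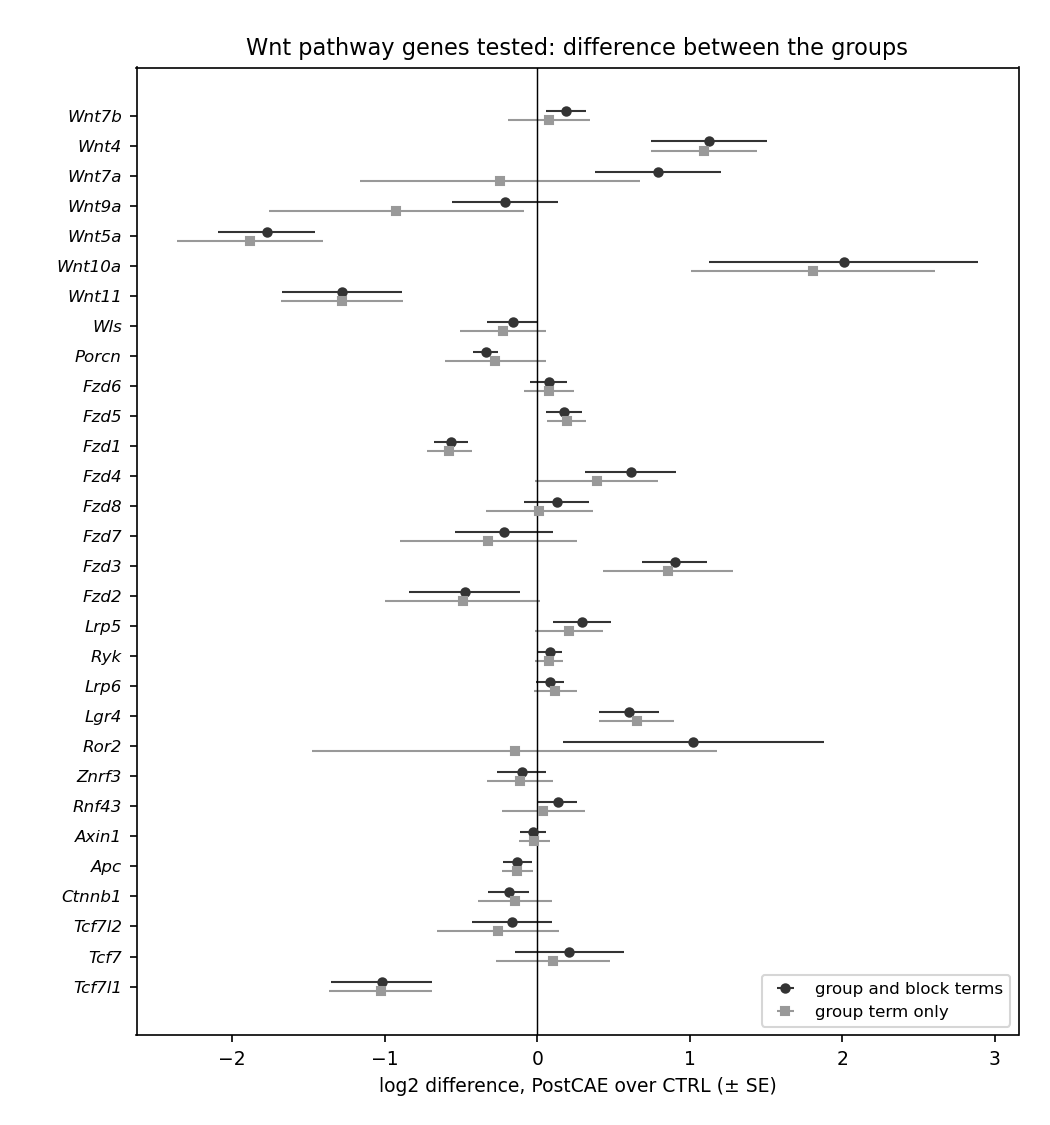
Log2 difference, post-caerulein over untreated, with its SE for the 30 members tested, ordered by role, from the model with group and block terms (circles) and from the model with the group term only (squares). Wnt5a, Wnt11 and Tcf7l1 lie to the left and Wnt4 and Wnt10a to the right in both models, and the error bars of Wnt7a and Ror2 are widest without the block.

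In the larger block alone, post-caerulein 1 to 3 against untreated 1 and 2, edgeR called 8 members, 4 higher (Wnt4, Wnt7a, Wnt10a and Lrp5) and 4 lower (Wnt5a, Fzd1, Tcf7l1 and Tcf7l2), against 7.35% and 6.46% of all genes. This comparison rests on untreated 1 and 2, a close pair, and on post-caerulein 2 and 3, another. Between post-caerulein 4 and untreated 3 all 4 of the members called higher there had negative log2 ratios, and of the 4 called lower, Tcf7l2 turned while Wnt5a, Fzd1 and Tcf7l1 kept their sign. Of the 29 members with a value in both blocks, 12 had the same sign, 41.4%, against 50.1% of all genes tested. Post-caerulein 4 and untreated 3 were both above or both below the other 5 libraries for 15 of the 30 members, against 36.1% of all genes. Both stood above for Wnt7a, Wnt7b, Wnt9a, Fzd7, Fzd8, Rnf43, Ror2 and Wls and below for Ctnnb1, Tcf7l2, Porcn, Znrf3, Fzd2, Fzd6 and Lrp6.

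**Figure D5:**
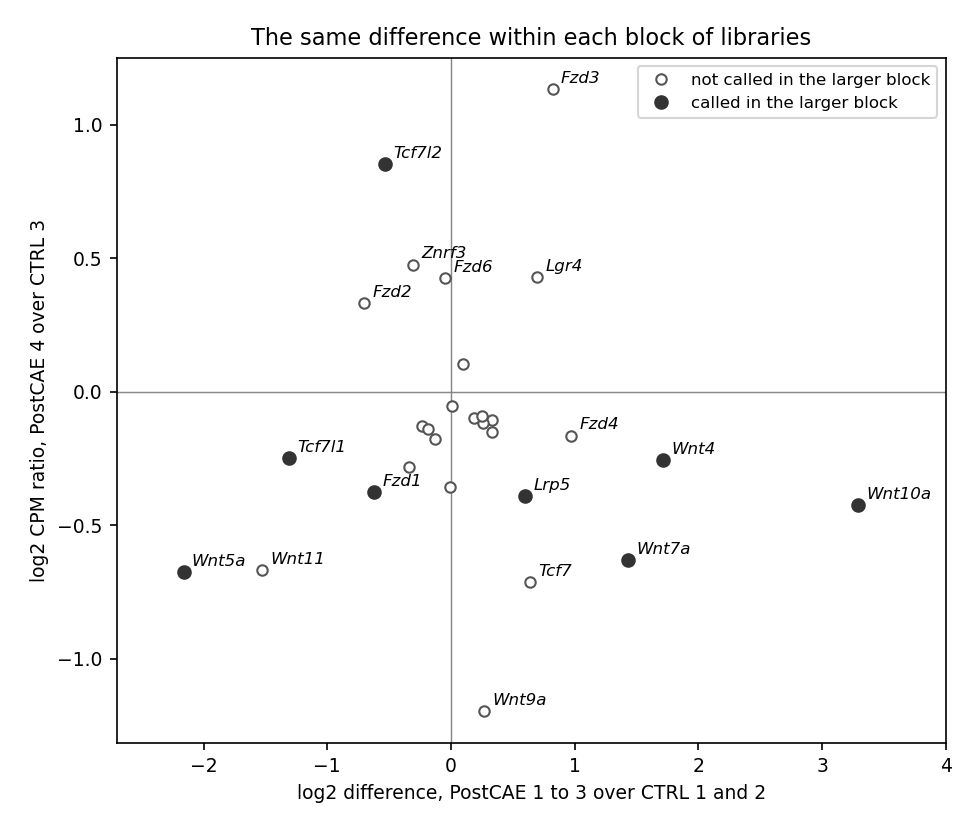
Log2 difference in the larger block (post-caerulein 1 to 3 over untreated 1 and 2, horizontal axis) and log2 CPM ratio of post-caerulein 4 over untreated 3 (vertical axis, 1 library each) for 29 members, with filled symbols for members called in the larger block. Wnt5a, Fzd1 and Tcf7l1 are negative on both axes, while Wnt4, Wnt7a, Wnt10a and Lrp5 are positive on the horizontal and negative on the vertical axis.

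The authors' deposited table lists 28 of the 42 genes and calls 5 at a false discovery rate under 0.05, against 7.88% of its 12983 genes (4.49% higher, 3.39% lower). In the authors' deposited table Wnt4, Wnt10a and Lgr4 are higher in post-caerulein libraries, with log2 fold changes of 1.14, 2.16 and 0.61. In the authors' deposited table Wnt5a and Wnt11 are lower, at -1.76 and -1.27, and Fzd1 has a false discovery rate of 0.0501. The table rests on a likelihood ratio test with the block, and of its 5 calls the quasi-likelihood test with the block held Wnt5a.

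Further genes of the pathway were read from 6 lists with 113 genes. Of 9 other ligands, 8 were too low to test, and Wnt2b, the exception, stayed at or under 0.485 CPM. The 17 genes of the list of R-spondins, further inhibitors and Ndp were all too low to test, none of them above 0.2001 CPM. Of the 26 cytoplasmic and nuclear transducers tested, the 9 other receptors tested and the 16 planar polarity and noncanonical genes tested, 0 passed edgeR's test with or without the block and 0 passed DESeq2 without it. With the block, 5 transducers, 3 receptors and 3 planar polarity genes had an unadjusted p under 0.05, where 17.5% of all genes did. In the larger block alone edgeR called 3 receptors higher, 1 transducer higher and 4 lower, and 1 planar polarity gene in each direction. There it called 7.35% of all genes higher and 6.46% lower. With the block 20 of the 26 transducers had negative log2 differences and 6 positive ones, where 49.36% of all genes were positive. The groups did not overlap for 4 transducers, all lower, and 1 planar polarity gene, higher, against 4.64% and 4.67% of all genes. Gsk3b, the kinase of the destruction complex, lay between 179 and 195 CPM in all libraries and was picked after its values were seen. Ror1, a receptor kinase for Wnt5a, lay between 0.272 and 5.32 CPM, was also picked afterwards and had a log2 difference of 2.43 ± 0.46 (SE) with the block, which missed the threshold (adjusted p = 0.0548, edgeR quasi-likelihood).

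Of 30 genes known as beta-catenin targets in some tissue, 22 were tested and 3 passed edgeR's test with the block, 1 higher and 2 lower, against 1.53% of all genes. The list was fixed with earlier results of these data known, so these shares are no test of enrichment. In the larger block alone edgeR called 6 of these target genes higher and 3 lower, against 7.35% and 6.46% of all genes. With the group only, edgeR called 0 of them, with 5 at an unadjusted p under 0.05, and DESeq2 called 3, with Prox1 higher and Ephb3 and Bmp4 lower, against 3.10% of all genes. Ephb3, an ephrin receptor, was at 21.3, 19.8, 20.0 and 13.1 CPM in post-caerulein 1 to 4, against 72.6, 81.5 and 22.6 CPM in untreated 1 to 3, and fell by 1.6 ± 0.21 (log2 ± SE, edgeR quasi-likelihood, adjusted p = 0.0234). The groups did not overlap, although untreated 3 was close to the post-caerulein range. Bmp4, a BMP ligand, was at 3.896, 3.30, 2.91 and 3.57 CPM in post-caerulein libraries, against 13.8, 11.7 and 5.65 CPM in untreated libraries, and fell by 1.56 ± 0.27 (adjusted p = 0.0439, edgeR quasi-likelihood). Ppard, a fatty acid receptor, was at 171.8, 150.5, 153.5 and 186.3 CPM in post-caerulein libraries, against 110, 98.63 and 139 CPM in untreated libraries, and rose by 0.55 ± 0.10 (adjusted p = 0.0445, edgeR quasi-likelihood). All 3 calls were lost when untreated 1 or untreated 2 was left out and when the close pairs were summed, where 0 genes passed in all. These genes are also controlled by other pathways. Targets regarded as more specific were near 0 in both groups, with Sp5 at or under 0.0420 CPM, Ascl2 at or under 0.232 CPM and Tnfrsf19 at or under 0.0832 CPM.

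The epithelial label held, with a summed level of 10 ductal markers between 14320 and 21390 CPM in post-caerulein and between 13610 and 15480 CPM in untreated libraries. The fibroblast and stellate markers summed to 3.78 to 8.51 CPM in post-caerulein and 0.816 to 22.0 CPM in untreated libraries, and 7 of the 12 stayed under 1 CPM. Untreated 3, with the highest sum, also had the highest Wnt7a, Wnt9a and Ror2. Among the members tested it was likewise the highest library for Wnt7b, Lrp5, Wls, Fzd1, Fzd4, Fzd7, Fzd8, Rnf43, Tcf7 and Apc. Post-caerulein 4 came next for Wnt7a, Wnt9a and Ror2, and its sum (8.09 CPM) was below that of post-caerulein 2 (8.51 CPM). Acinar markers summed to 1.80 to 11.9 CPM in post-caerulein and 0.6185 to 0.823 CPM in untreated libraries. Islet markers summed to 0.483 to 4.65 CPM in post-caerulein and 0.124 to 0.489 CPM in untreated libraries, and endothelial markers to 0.336 to 1.58 CPM in post-caerulein and 0.445 to 0.9905 CPM in untreated libraries. Leukocyte markers summed to 12.8 to 36.6 CPM in post-caerulein and 21.5 to 98.8 CPM in untreated libraries, but nearly all of it was Cd68, a lysosomal gene that epithelium also expresses, while Ptprc, which defines leukocytes, was at or under 0.105 CPM. No sum passed an exact permutation test, two-sided, with 35 assignments (smallest exact p = 0.0571, adjusted 0.257, for the acinar markers). The design allows no p under 0.0286, and after adjustment over the 6 lists a single sum at that floor could not pass. The test therefore cannot decide whether the content of a cell type differed. The acinar sums did not overlap between the groups. Single markers did pass in the models used for the members. In the larger block 5 of the 7 fibroblast and stellate markers tested were called higher (Col1a1, Col1a2, Col3a1, Col6a3 and Pdgfrb), where 7.35% of all genes were. Over all 7 libraries, edgeR with or without the block and DESeq2 with the group only called 0 of these markers. Of the 7, 2 had the same sign in both blocks. Among the 10 ductal markers, 2 were called higher and 1 lower in the larger block, against 7.35% and 6.46% of all genes. The acinar gene Ctrb1 was called higher by edgeR with the block, and both islet markers tested, Chga and Iapp, by DESeq2 with the group only. Their part in the results on the Wnt genes was not tested. In these bulk libraries fewer cells of a type and less RNA per cell cannot be told apart.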

How the data were processed

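RNA-seq libraries of mouse pancreatic spheroids were grouped by sample title. The deposited count table gives unnormalised counts per gene with exon coordinates and exonic length, per the file headers; the submitters' processing notes name featureCounts 0.6.1 and GRCm38 (mm10). No source used here names the aligner or strand setting, so genes overlapping on opposite strands may share reads, and such partners of members had at most 62 reads (AU022754, beside Wnt7b). The authors' deposited edgeR table (edgeR 3.2.2, per the submitters' processing notes) holds log2 fold changes and log2 CPM, a likelihood ratio score, p-values and false discovery rates, per the file headers.

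After filterByExpr (min.count 10, min.total.count 15) and TMM scaling, edgeR 4.0.16's robust quasi-likelihood test was run. Its two-sided p-values were adjusted by Benjamini and Hochberg's method across 16438 genes, and calls are those under 0.05. The SE is the log2 difference over the root of the F statistic. CPM use TMM-scaled library sizes. The block term was taken from earlier work on these files and checked against the deposited table, where a refit shared all 1023 calls. Members, lists and tests were chosen with earlier results of these data known. All members are accounted for; values per library are given for those called, the 5 next by p with the block and the 5 highest per kilobase, and, chosen after their values were seen, for Lgr4, Wnt7a, Wnt9a, Wnt10a and Tcf7l2. Wisp1 and Wisp2 are Ccn4 and Ccn5 in the annotation. Alternatives were DESeq2 1.42.0, limma-voom (limma 3.58.1), other normalisation and filters, summed close pairs and each library left out. The procedure was also run on simulated counts, and the outcome of that run is not given here. Analyses ran in R 4.3.3, figures in matplotlib 3.10.9.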

Additional observations from a re-analysis of the deposited data

Results flagged for a closer look

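Post-caerulein 4 stood apart from the other 3 post-caerulein libraries for Fzd3, at 6.93 CPM against 2.77 to 3.27 CPM, and for Porcn, at 38.8 CPM against 75.9 to 78.8 CPM. The summed ductal markers were far higher in post-caerulein 1, at 21390 CPM, than in the other 3. Each gap took a larger part of its group's range than Dixon's critical value allows for 4 samples. Chance gives about 1 such gap in 20 groups, and 3 were found in 36.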

How the results depend on the processing

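With the group as the only term, 0 genes were called, and this number was 23 with no filter on low counts, 509 by DESeq2 and 2247 in the larger block alone; leaving out 1 library gave 0 to 1149. The 0 members called became 2 by DESeq2 and 8 in the larger block, with 0 to 3 when 1 library was left out. With the block, the 251 genes called became 602 without a filter, 138 with at least 50 counts in 3 libraries, 1389 by DESeq2 and 0 with close pairs summed, with 0 (untreated 1 or 2 left out) to 2267 (untreated 3 left out). The 1 member called with the block became 0 with the stricter filter and 0 with close pairs summed, 6 by DESeq2 and 0 to 8 with 1 library left out. The cause of these changes was not tested. Leaving out untreated 3 or post-caerulein 4 under the block amounts to the larger block alone. The labels do not say whether the library numbers pair the samples. The deviations of libraries 1, 2 and 3 of the groups correlated at 0.21, -0.167 and 0.16. Libraries with unlike numbers correlated at -0.251 to 0.231, so these values, from 3 libraries per group, cannot settle it. The replicate block, on libraries 1 to 3 of each group, called 0 genes and 0 members. Under it Porcn (0.0088) and Ctnnb1 (0.0131) reversed their small negative log2 differences. With the group only, Wnt7b reversed to -0.00105 with close pairs summed and ranged from -0.084 to 0.472 with 1 library left out, while Wls ranged from -0.414 to 0.0645. The leukocyte difference of -0.64 reversed to 0.0789 for the median over markers. No alternative fit that gave a value turned the direction of Wnt5a, Wnt4, Wnt11, Fzd1, Fzd3, Lgr4, Lrp5 or Tcf7l1, although Wnt4 (-0.26) and Lrp5 (-0.39) had the other sign between post-caerulein 4 and untreated 3 alone. Depth limits what can be said of the 12 untested members, whose highest level was 0.645 CPM.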
